A study of Mus musculus with 12 samples.

Results

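The genes of epithelial-mesenchymal transition (EMT) described here are the transcription factors Snai1, Snai2, Zeb1, Zeb2 and Twist1, the cadherins Cdh1, Cdh2 and Cdh3, the filament gene Vim and the matrix gene Fn1. They were chosen by gene symbol, and every probe set that the array annotation assigns to 1 of these symbols alone was used. This gave 23 of 45037 probe sets, for 10 of 18193 genes, and none was left out for low signal. The RNA came from 4 mouse lung adenocarcinoma cell lines, KC1 to KC4, each hybridised to 3 one-colour Affymetrix arrays that read the 3-prime end of transcripts. The labels call KC4 poorly metastatic and its 3 companions highly metastatic, and they describe the arrays of a line as biological replicates. All of the lines share the genotype K-rasLA1/+; Cdkn1a-/- on the 127s background, that is, 1 latent oncogenic K-ras allele that is activated in scattered somatic cells, and no intact copy of the gene for the cell-cycle inhibitor p21. They were grown in RPMI medium with 10% serum. The source tumours were 6 primary lung tumours of 4 mice, and the labels do not say which line came from which mouse. With a single poorly metastatic line, the metastatic class and the line KC4 cannot be told apart.

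In EMT, epithelial cells loosen their junctions and take on the shape and motility of mesenchymal cells. Transcription factors of the Snail, Zeb and Twist families drive the programme, and the Snail and Zeb proteins bind E-box sequences in the promoters of epithelial genes, E-cadherin among them, and repress them. A fall in E-cadherin with a rise in N-cadherin, vimentin and fibronectin is the textbook readout, and lung cancer cells are often found in states that carry both epithelial and mesenchymal genes.

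Signals are linear intensities on arrays scaled to one average brightness. Values under 16 were set to 16, which is called the floor below, so log2 values begin at 4. Levels are compared between lines for 1 probe set at a time, never between probe sets, and levels of a line are given as mean signal ± SD (n = 3). A difference was called at a Benjamini-Hochberg adjusted p under 0.05, over all 45037 probe sets, together with a log2 difference of 1 or more in size, in limma's moderated test. All adjusted p values below are from that test. The brightest probe set stands for a gene where genes are counted. The contrast of class subtracts KC4 from the average of the other 3 lines on the log2 scale.

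The arrays had median signals of 94.5 to 128, and 15.3% to 20.0% of the probe sets on each lay at or under the floor. All lines carried epithelial RNA. The signals of 8 epithelial markers summed to 65365 to 76804 on KC4 arrays and 84407 to 108424 for KC2. For KC3 the sums were 88204 to 91776, and for KC1 91522 to 98961. Of the 8, 0 were called between the classes, which is near the share of all genes called (2.85% higher and 2.51% lower). Cldn7 (log2 0.98, adjusted p = 4.95e-06) and Epcam (0.89, adjusted p = 9.11e-06) were higher in the contrast of class, just under the minimum difference. Krt8, Krt18 and Krt19 differed by 0.14, 0.21 and 0.11. The 8 lung lineage markers summed to 1057 to 1385 on KC4 arrays, 1660 to 1992 for KC2, 605 to 957 for KC3 and 1133 to 1741 for KC1. Sftpd, a surfactant protein, was called higher in the contrast of class, and the lineage factor Foxa2 was called lower. Neither gene separated all of the highly metastatic lines from KC4. The mean of Sftpd was 1280 for KC2 and 465 for KC1, but KC3 (115) lay below KC4 (155). Foxa2 was lower for KC2 (103) and KC3 (190), whereas KC1 (515) lay close to KC4 (527). The defining lung factor Nkx2-1 read 5.3 to 55.6 over all arrays, and Napsa was at the floor in every line. The 9 fibroblast markers summed to 489 to 734 on KC4 arrays, 591 to 654 for KC2, 448 to 680 for KC3 and 512 to 551 for KC1. Pdgfrb was at the floor in each line. Between the classes 0 of the 9 were called, again near the share of all genes. Sums over 6 smooth muscle markers (514 to 829 for KC4, Cnn1 at the floor), 6 endothelial markers (394 to 503, Tie1 at the floor) and 6 leukocyte markers (665 to 706) stayed within the range of the other lines. The 5-prime control for 18S ribosomal RNA did differ, at 2706 to 4383 on the KC4 arrays against 369 to 679 on all others, and its part in the differences of KC4 was not tested. In RNA from a culture, fewer expressing cells and less RNA per cell cannot be told apart.

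The 5 transcription factors behaved in 3 ways. Snai2 was nearly absent from KC2 alone, Zeb2 was highest in KC4 and lowest in KC2, and Snai1, Zeb1 and Twist1 were not called in any pair of lines.

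Snai2 encodes Slug, a zinc-finger repressor of epithelial genes. On its brighter probe set KC1 read 961, 894 and 865, KC2 read 19.3, 9.76 and 24.5, KC3 read 1687, 1707 and 1460, and KC4 read 456, 434 and 546. The lines did not overlap, and 1 KC2 array was under the floor. KC2 was therefore lower than KC1 by at least 46.1-fold (KC1 minus KC2, log2 5.53, SE 0.15, adjusted p = 6.76e-08), than KC3 by at least 82.2-fold (1.68e-08) and than KC4 by at least 24.3-fold (1.08e-07). KC3 was in turn 3.39-fold above KC4 (adjusted p = 3.98e-05). KC1 lay between them, 0.83 below KC3 and 0.93 above KC4 on the log2 scale, both under the minimum difference.

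The second Snai2 probe set gave the same order of lines with a narrower range. On it KC1 read 298, 577 and 612, KC2 read 59.2, 48 and 43.6, KC3 read 591, 478 and 415, and KC4 read 288, 354 and 362. KC2 was lower than each other line by 6.67 to 9.82-fold, while KC3 and KC4 did not differ past the threshold (log2 0.56, adjusted p = 0.197). On the second probe set the KC3 arrays still lay above those of KC4, so only the call between KC3 and KC4 rests on the brighter probe set alone. The brighter probe set is of a kind that can also pick up related transcripts. In the contrast of class Snai2 was not called, at -0.64 (SE 0.12, adjusted p = 0.00496). That value averages lines on opposite sides of KC4: without KC2 it turned to 1.34 (adjusted p = 0.000123), and without KC1 or KC3 it was -1.42 or -1.84.

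Zeb2, a zinc-finger and homeodomain repressor also called SIP1, had 5 probe sets, and on each the order was KC4, KC1, KC3, KC2 from high to low. On the brightest KC1 read 218, 165 and 222, KC2 read 163, 125 and 127, KC3 read 174, 215 and 168, and KC4 read 380, 341 and 344. Every KC4 array lay above every array of the other lines, KC1 and KC3 overlapped, and the KC2 arrays lay just below both. KC4 exceeded KC2 by 2.59-fold (adjusted p = 0.000144), but its differences from KC1 (log2 0.83) and KC3 (0.94) missed the minimum. In the contrast of class Zeb2 was lower by 2.07-fold (log2 -1.05, SE 0.12, adjusted p = 0.000275). This value lay close to the minimum and fell under it without KC2 (-0.88), without the first KC4 array (-0.997) and when 16 was added to each signal rather than used as a floor (-0.98).

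Other Zeb2 probe sets showed wider ranges. On one of them KC1 read 115, 178 and 183, KC2 read 21.2, 2.93 and 22.4, KC3 read 30.6, 28.2 and 39.2, and KC4 read 458, 781 and 533. There KC1 stood between KC4 and the nearly dark KC2 and KC3: it was 3.70-fold below KC4 (adjusted p = 0.000905) and 4.81-fold above KC3 (0.0002). The class differences of the 5 probe sets were all called and ran from log2 -3.64 to -1.05. Zeb2 was called higher in KC4 than in KC2 on 5 of 5 probe sets, than in KC3 on 4 and than in KC1 on 3. It was called higher in KC1 than in KC2 on 4. The brightest probe set thus gave the smallest class difference of the 5, so the size of the Zeb2 difference depends on which one is read.

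Snai1, the founding Snail repressor, was dim in every line. On its 1 probe set KC1 read 94.0, 63.0 and 80.7, KC2 read 148, 99.4 and 99.8, KC3 read 148, 130 and 138, and KC4 read 101, 105 and 142. The KC1 arrays lay below all others, and the rest overlapped. KC1 was 0.83 below KC3 on the log2 scale (95% interval 0.36 to 1.30, adjusted p = 0.0167), which is under the minimum difference. The class contrast was -0.10 (interval -0.48 to 0.29, adjusted p = 0.783).

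Zeb1, the close relative of Zeb2, did not share its pattern. The brightest of 4 Zeb1 probe sets read 47.3 to 123 over all arrays, with a class difference of 0.00 (interval -0.70 to 0.70). The other 3 never exceeded 41.4 and lay at or under the floor on 3, 6 and 11 of 12 arrays. That interval spans differences of up to 0.70 either way on the log2 scale, so these data do not show the lines to be alike in Zeb1. Twist1, a basic helix-loop-helix factor, gave 1.82 to 8.75 on its 1 probe set, under the floor on all 12 arrays, and no difference could be measured.

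**Figure D1:**
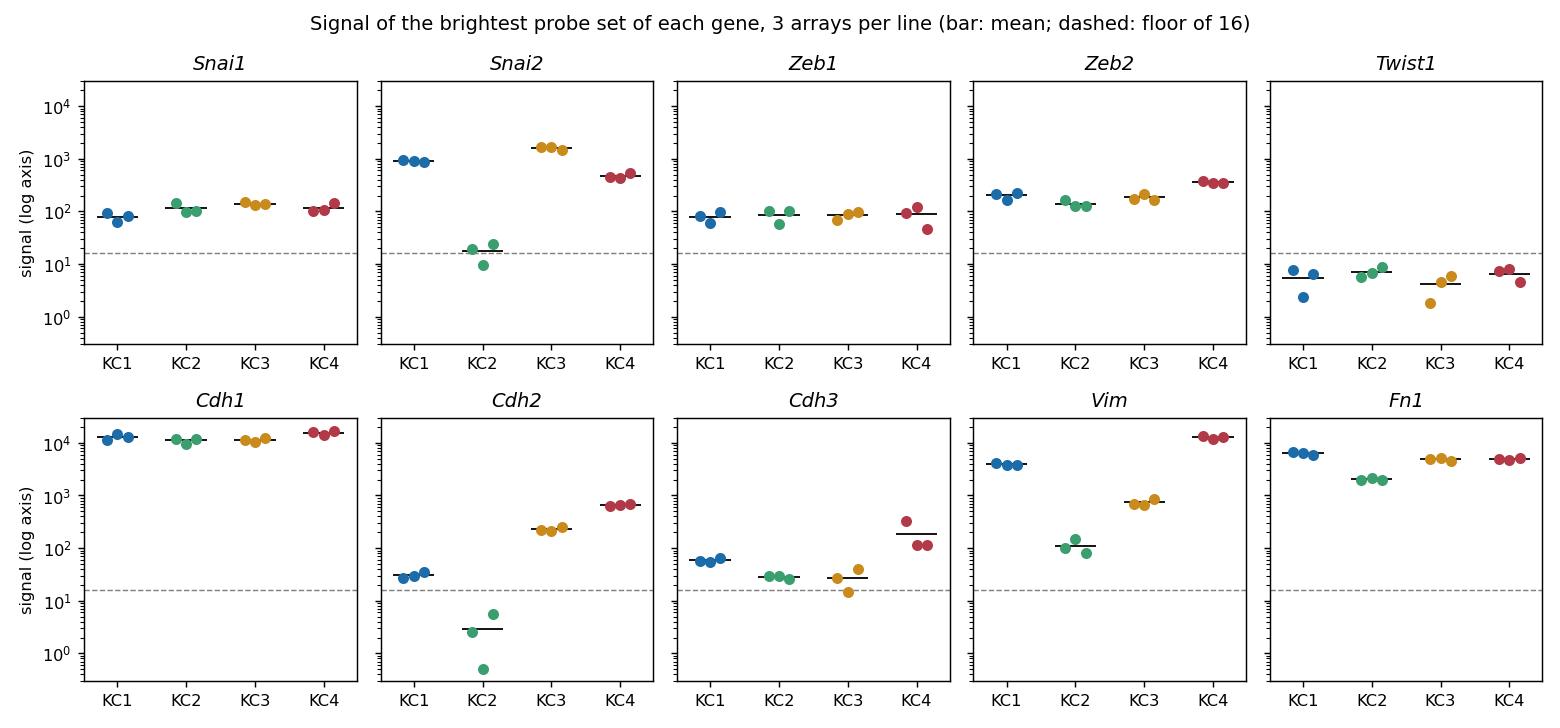
Signals of the brightest probe set of each of the 10 genes on a log scale, 1 point per array, with a bar at the mean of each line (n = 3) and the floor of 16 as a dashed line. Snai2 drops in KC2 alone, Vim separates all of the lines, Cdh2 rises from KC2 through KC1 and KC3 to KC4, and Cdh1 stays between 9575 and 16680 on every array.

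Vim encodes vimentin, the intermediate filament protein of mesenchymal cells. On the brightest of 3 probe sets KC1 read 4052, 3875 and 3783, KC2 read 101, 148 and 81.1, KC3 read 701, 670 and 867, and KC4 read 13787, 11873 and 13044. No lines overlapped, and the levels fell from KC4 through KC1 and KC3 to KC2. Each step in that order was called: KC4 was 3.30-fold above KC1 (adjusted p = 0.000317), KC1 was 5.26-fold above KC3 (2.79e-05), and KC3 was 6.96-fold above KC2 (7.29e-06). From end to end, KC4 exceeded KC2 by 121-fold (log2 6.92, SE 0.20, adjusted p = 4.46e-08).

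All 6 pairs were called on each of the 3 Vim probe sets, with the same order of lines. On the second the mean signals were 10818 ± 1007 for KC4, 3221 ± 617 for KC1, 483 ± 87.3 for KC3 and 111 ± 29.9 for KC2. On the third they were 8743 ± 498, 2634 ± 246, 449 ± 35 and 62.3 ± 19.7, in the same order. The class differences of the 3 ran from -4.40 to -4.25. Within the highly metastatic lines KC1 was 36.6-fold above KC2, a larger ratio than the 3.30-fold between KC4 and KC1. Leaving out KC1, KC2 or KC3 moved the class difference of the brightest probe set from -4.25 to -5.52, -2.92 or -4.32.

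The order of lines for Vim was also that of each Zeb2 probe set and of Cdh1, for which no pair of lines was called. Not every step of that order was called for Zeb2. KC2 and KC3 were called apart on 1 of its 5 probe sets, and KC1 and KC3 on 3. The promoters of Vim and Zeb2 are shown because these genes moved over the lines in the same order. No window was found for Cdh1. That of Snai1 is shown because Snail proteins are known to act on E-boxes. The windows are the 250 bases before the transcription start in RefSeq's annotation of GRCm38.p6, read 5′ to 3′ on the gene's strand: chr2:13574061-13574310 on the plus strand for Vim, chr2:45117443-45117692 on the minus strand for Zeb2, at the most upstream of 4 starts, and chr2:167537945-167538194 on the plus strand for Snai1. Capitals mark the E-box CAGGTG or CACCTG and the CCAAT box CCAAT or ATTGG, each counted on both strands, and TATAAA on the gene's strand.
Vim: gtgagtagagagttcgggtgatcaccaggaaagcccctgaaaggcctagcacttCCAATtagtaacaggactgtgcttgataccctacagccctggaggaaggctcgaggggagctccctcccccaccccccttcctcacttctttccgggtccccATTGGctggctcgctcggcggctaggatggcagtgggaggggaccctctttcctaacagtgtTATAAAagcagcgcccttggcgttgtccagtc
Zeb2: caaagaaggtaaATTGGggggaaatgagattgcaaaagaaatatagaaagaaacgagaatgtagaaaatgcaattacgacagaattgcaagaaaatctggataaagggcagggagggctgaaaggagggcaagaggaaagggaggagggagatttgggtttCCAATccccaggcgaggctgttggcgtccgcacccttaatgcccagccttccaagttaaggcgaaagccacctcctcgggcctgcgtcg
Snai1: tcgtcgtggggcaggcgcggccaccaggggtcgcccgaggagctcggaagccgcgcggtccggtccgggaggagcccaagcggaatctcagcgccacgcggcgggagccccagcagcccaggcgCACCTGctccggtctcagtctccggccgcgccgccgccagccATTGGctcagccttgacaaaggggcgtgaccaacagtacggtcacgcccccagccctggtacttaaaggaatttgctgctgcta
The Vim window held TATAAA 32 bases before the start and a CCAAT box at 94 and at 196 bases, in 1 orientation each. The Zeb2 window held 2 CCAAT boxes, at 89 and 238 bases. Neither held the E-box, while Snai1 held CACCTG at 126 bases and a CCAAT box at 84. For comparison, 17.2% of 32851 windows in the table held the E-box, 7.59% TATAAA and 33.8% a CCAAT box. A match is a run of letters and no evidence of binding. Windows were found for 4 of the 10 genes, Twist1 being the other, and 1 of the 4 held the E-box.

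**Figure D2:**
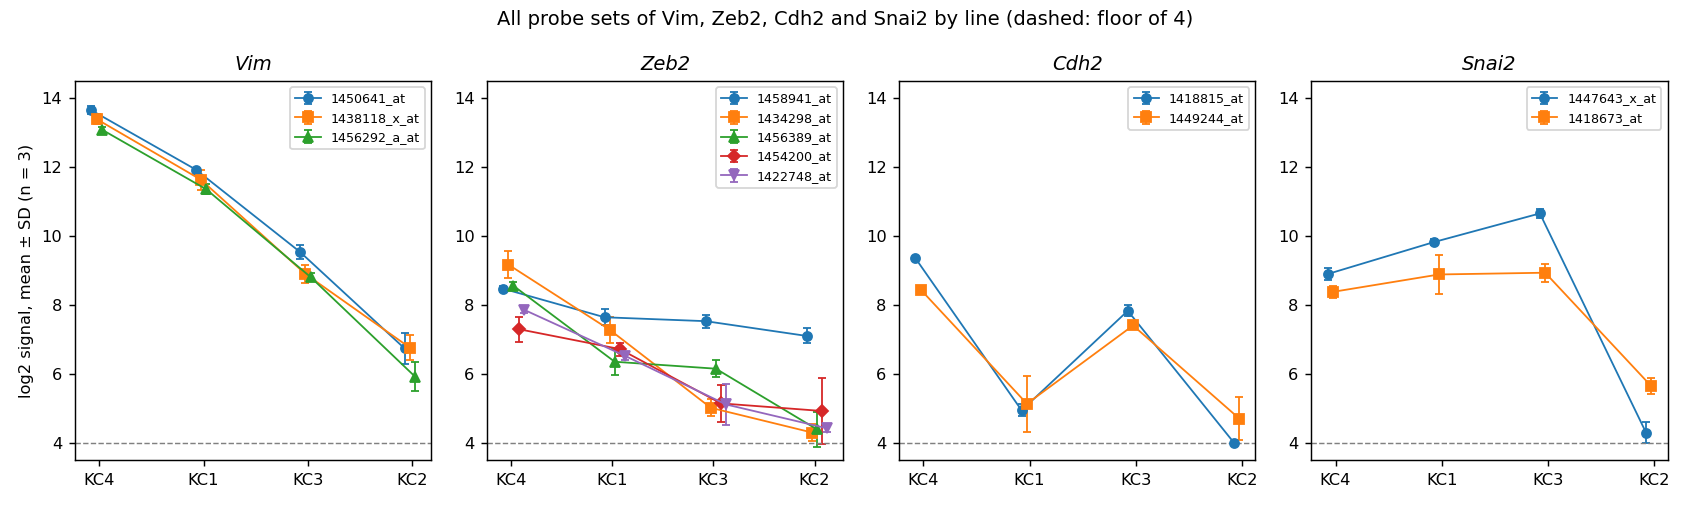
Mean log2 signal ± SD (n = 3) of every probe set of Vim, Zeb2, Cdh2 and Snai2, with the lines in the order of the Vim levels along the x axis and the floor of 4 dashed. All 3 Vim and all 5 Zeb2 probe sets descend from KC4 to KC2, both Cdh2 probe sets have KC3 above KC1, and both Snai2 probe sets drop at KC2 alone.

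Of the cadherins, E-cadherin was high in every line, whereas N-cadherin and P-cadherin were highest in KC4. Cdh1 encodes E-cadherin, the adhesion molecule of epithelial junctions. On its 1 probe set KC1 read 11229, 14529 and 13084, KC2 read 11805, 9575 and 11963, KC3 read 11525, 10521 and 12388, and KC4 read 15814, 13817 and 16680. KC4 lay above all KC2 and KC3 arrays and overlapped KC1. The class contrast was -0.39 (95% interval -0.62 to -0.15, adjusted p = 0.024), a lower level in the highly metastatic lines by less than the minimum difference. No pair of lines was called.

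Cdh2 encodes N-cadherin, the cadherin of neural and mesenchymal cells. On its brighter probe set KC1 read 27.6, 29.8 and 35.1, KC2 read 2.60, 0.496 and 5.49, KC3 read 222, 207 and 256, and KC4 read 635, 653 and 676. The lines did not overlap, and KC2 was under the floor on all of its arrays. KC4 was 2.88-fold above KC3 (log2 1.53, adjusted p = 5.97e-06), 21.3-fold above KC1 (1.51e-08) and at least 40.9-fold above KC2 (3.25e-09). KC3 was 7.41-fold above KC1 (1.52e-07) and at least 14.2-fold above KC2. KC1 and KC2 differed by at least 0.94 on the log2 scale (adjusted p = 0.000184), under the minimum.

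The second Cdh2 probe set kept the order KC4, KC3, KC1, KC2, with 355, 344 and 344 in KC4 and 166, 159 and 184 in KC3. KC1 gave 38.8, 19.2 and 57.8 and KC2 gave 36.3, 8.12 and 30.3, and these overlapped. Its KC3 and KC4 difference was 1.04 on the log2 scale and was not called (adjusted p = 0.101), although the arrays did not overlap. The class difference was -3.77 (SE 0.08, adjusted p = 8.45e-09) on the brighter probe set, a lower bound in size, and -2.70 on the other. The orders of Cdh2 and Vim differed in KC1 and KC3: KC1 was 5.26-fold above KC3 in Vim and 7.41-fold below it in Cdh2.

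Cdh3 encodes P-cadherin, found in basal and placental epithelium. On its brighter probe set KC1 read 58.0, 53.5 and 65.3, KC2 read 29.0, 29.6 and 25.8, KC3 read 27.1, 14.6 and 40.2, and KC4 read 321, 114 and 113. All KC4 arrays lay above all others, but within KC4 1 array read 321 against 113 and 114 on the other two. The class difference was log2 -2.20 (SE 0.35, adjusted p = 0.00173). KC4 was called against KC2 (adjusted p = 0.0021) and KC3 (0.00189). Against KC1 the difference of 1.45 only just passed (0.0489) and lost its call in 9 of 12 fits that left out 1 array. Without the bright KC4 array it was 0.95 (adjusted p = 0.0938) and the class difference was -1.70. With the replicate number as a block the adjusted p against KC1 was 0.0619. The other Cdh3 probe set was at or under the floor on 10 of 12 arrays and was not called.

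Fn1 encodes fibronectin, a matrix protein that EMT raises in many cells. On its brighter probe set KC1 read 6688, 6353 and 5866, KC2 read 1959, 2166 and 1955, KC3 read 5031, 5179 and 4616, and KC4 read 4838, 4808 and 5212. KC2 was lower than every array of the other lines, 3.11-fold below KC1 (adjusted p = 9.8e-07) and 2.44-fold below KC3 (1.32e-06) and KC4 (1.48e-06). KC3 and KC4 overlapped and differed by 0.00 on the log2 scale. On the second probe set KC1 read 427, 399 and 434, KC2 read 181, 148 and 166, KC3 read 196, 159 and 235, and KC4 read 211, 242 and 222. There KC1 stood above the rest and KC2 was not called against KC3 (log2 -0.24) or KC4 (-0.45). The 2 probe sets thus share a high KC1 and a low KC2 and differ in where KC3 and KC4 fall.

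**Figure D3:**
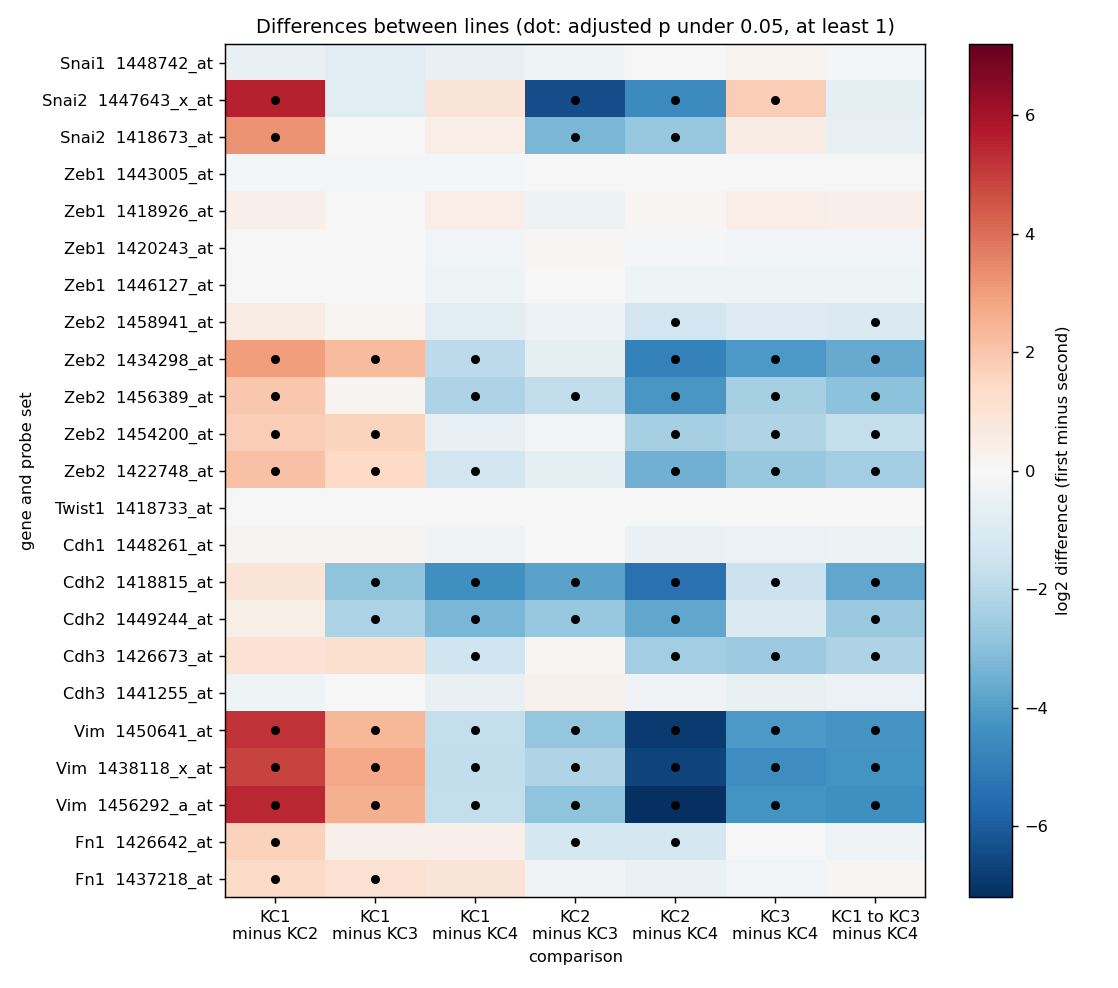
Heat map of the log2 differences (first line minus second; red higher, blue lower) of all 23 probe sets in the 6 pairs of lines and the contrast of class, with a dot on each called difference. In the class column 11 probe sets carry a dot, all lower, and the rows of Snai1, Zeb1, Twist1 and Cdh1 carry none.

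Counted by contrast, the members differed most between KC2 and KC4. In KC2 minus KC4, 6 of 10 were called, all lower in KC2 (Snai2, Zeb2, Cdh2, Cdh3, Vim and Fn1), against 4.39% of all genes called lower. In KC3 minus KC4, 4 were called, against 7.92% of all genes in either direction, with Snai2 higher and Cdh2, Cdh3 and Vim lower. In KC1 minus KC4, Cdh2, Cdh3 and Vim were lower, against 1.95% of all genes called lower, and none was higher. Among the highly metastatic lines, KC1 minus KC2 called 3, all higher (Snai2, Vim and Fn1), against 2.97% of all genes called higher. KC1 minus KC3 called Vim higher and Cdh2 lower, against 8.01% of all genes in either direction. KC2 minus KC3 called 4, all lower (Snai2, Cdh2, Vim and Fn1), against 4.88% of all genes called lower. These contrasts share arrays and are not independent of each other.

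In the contrast of class, 4 of 10 genes were called, Zeb2, Cdh2, Cdh3 and Vim, all lower in the highly metastatic lines, against 2.51% of all genes called lower. The median difference was -0.51 over the members and -0.00088 over all genes. Of the 23 probe sets 11 were called, all lower, against 2.1% of all probe sets called lower. With the line as a random block, 0 of the 10 genes were called in limma, and 4 had an unadjusted p under 0.05. The adjusted p values in that fit were 0.0594 for Zeb2, 0.0971 for Cdh2, 0.15 for Cdh3 and 0.171 for Vim. The calls of class measure KC4 against 3 lines, with the spread between arrays of a line as the error.

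Of the 22 probe sets above the floor on at least 1 array, KC4 was the highest line on 15 and KC2 the lowest on 15. Both counts include all 5 probe sets of Zeb2 and all 3 of Vim. The count for KC4 also includes dim probe sets of Zeb1 and Cdh3 that were not called in any pair. The share over all probe sets was not computed. Over the 6 pairs of lines, 6 of the 10 genes were called at least once, against 19.8% of all genes. Among KC1, KC2 and KC3 alone it was 4 of 10 (Snai2, Cdh2, Vim and Fn1), against 14.6%. A line was set apart by a gene whose 3 differences from the remaining lines were all called with the same sign. Cdh2, Cdh3 and Vim set KC4 apart as higher, against 1.58% of all genes that set KC4 apart in either direction. Snai2, Vim and Fn1 set KC2 apart as lower, against 1.81%. None set KC1 (0.846%) or KC3 (2.34%) apart.

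For the members whose line means spanned at least log2 2, the genes most alike over the 12 arrays were looked up among 1024 genes whose line means also spanned at least log2 2. For Snai2 they were Kif13a (r = 0.995), Cth (0.989) and Pter (0.989). For Cdh2 they were Tubb2a (0.983), Tmem163 (0.983) and Krt14 (0.970), the last a keratin of basal epithelium whose mean log2 level was at the floor in KC2, 8.07 in KC3 and 12.24 in KC4. For Vim they were Aldh1l2 (0.979), Ccn1 (0.978) and Fbxl2 (0.970), and for Cdh3 Pir (0.929), Snx7 (0.927) and Mxra8 (0.919). The 12 arrays come from 4 lines, so these values describe 4 levels and carry no p.

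The class contrast was also read over 9 wider lists. Of 27 genes of epithelial junctions and polarity, 5 were higher in the highly metastatic lines, 0 were lower and 22 were not called, against 2.85% of all genes called higher and 2.51% lower. Their median difference was 0.59 against -0.00088 for all genes. Cldn3, a tight junction strand protein, had means of 6002 ± 103, 8850 ± 779 and 6379 ± 132 in the highly metastatic lines, given here and below in the order KC1, KC2, KC3, against 2438 ± 166 in KC4 (class difference 1.52, adjusted p = 2.27e-07). Its relative Cldn4 had 3759 ± 183, 4128 ± 194 and 3210 ± 146 against 1268 ± 29.7 (1.54, adjusted p = 4.23e-08). Muc1, a transmembrane mucin of the apical surface, was 5158 ± 178, 5724 ± 828 and 2700 ± 263 against 1169 ± 74.8 in KC4 (class difference 1.88, adjusted p = 1.24e-06). Ap1m2, the adaptor subunit that sorts proteins to the basolateral membrane, was 4014 ± 190, 4164 ± 180 and 4193 ± 133 in the highly metastatic lines and 656 ± 99.5 in KC4 (2.66, adjusted p = 5.82e-08). The fifth was Marveld3, a tight junction protein, at 1.07, although 0 of its 2 other probe sets were called. For Cldn3, the 3 other probe sets were all called higher. All 5 genes kept their calls with the line as a random block. That fit used the same correlation between arrays of a line (0.43) for all probe sets and had a single KC4 line. A kept call, here or in the lists below, therefore does not establish a difference between the classes. Among those not called, the desmosomal gene Dsp had a difference of -0.57 (adjusted p = 0.000108) and the polarity gene Llgl2 -0.47 (0.00678), both under the minimum.

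Of 25 mesenchymal genes, 0 were higher, 5 were lower and 20 were not called, against 2.51% of all genes called lower, and the median was -0.20. S100a4, Nt5e and Ncam1 kept their calls with the line as a random block, and the other two did not. S100a4, a calcium-binding protein of motile cells, was 372 ± 8.15, 249 ± 8.85 and 410 ± 52.8 against 3259 ± 117 in KC4 (class difference -3.28, adjusted p = 7.35e-09). Nt5e, the ectonucleotidase CD73, was 541 ± 54.3, 179 ± 11.3 and 190 ± 16.8 against 1598 ± 160 in KC4 (-2.59, adjusted p = 1.21e-07). Ncam1, a neural adhesion molecule, was 59.5 ± 5.35, 99.1 ± 10.3 and 178 ± 43.1 against 430 ± 18.7 (-2.09, adjusted p = 5.61e-06). Of the further probe sets, 1 of 2 for Nt5e and 3 of 6 for Ncam1 were called lower in the class contrast. The remaining called genes, Sparc (-1.91) and Ddr2 (-1.38), did not single out KC4. Sparc was 2966 ± 185 in KC2 and 84.0 ± 2.82 in KC3, and Ddr2 was 320 ± 30.2 in KC3 and 292 ± 38.7 in KC4. In the class contrast 1 of 2 further probe sets of Sparc and 0 of 1 of Ddr2 were called lower.

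Further EMT factors and their inhibitors were 0 higher and 4 lower of 21, against 2.51% of all genes called lower, with a median of 0.02. Prrx2 alone was called with the line as a random block. Prrx2, a homeobox gene of mesenchyme, was 229 ± 7.98, 252 ± 41.2 and 152 ± 5.79 in KC1, KC2 and KC3 and 737 ± 3.51 in KC4 (-1.84, adjusted p = 9.53e-07). Id3, which blocks basic helix-loop-helix factors from binding DNA, was 468 ± 50.5, 1507 ± 97.6 and 1502 ± 294 against 4436 ± 88.5 (-2.13, adjusted p = 2.35e-06), and Id1 was lower too (-1.59). Tcf4, whose product E2-2 binds E-boxes, was lower in the class contrast (-1.61) although KC4, at 447 ± 46.2, lay between KC1 (375 ± 50.5) and KC3 (519 ± 22.1). KC2 read 9.04 ± 7.02. Of the 5 other Tcf4 probe sets, 1 was called lower in the class contrast.

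The corepressors and turnover enzymes that work with Snail and Zeb proteins gave 0 calls of 20 in limma, with a median of -0.10. A count of 0 of 20 is near the share of all genes called (2.85% higher and 2.51% lower). At an unadjusted p under 0.05 there were 13, and the share of all genes under that p was not computed. Epithelial transcription and splicing factors were split, with 3 higher and 4 lower of 17, against 2.85% of all genes called higher and 2.51% lower. Elf3 and Klf4 alone kept their calls with the line as a random block. Cebpa, a factor of differentiated lung epithelium, was 705 ± 56.5, 170 ± 42.2 and 267 ± 4.76 in the highly metastatic lines and 36.9 ± 26.8 in KC4, where 1 array was at the floor (at least 3.32, adjusted p = 0.000141). Ovol1 (1.24) and Elf3 (1.00) were the other two higher, and the 1 further Ovol1 probe set was not called. Klf4, a factor of barrier epithelia, was highest in KC4, at 7380 ± 1182 against 2468 ± 380, 3210 ± 550 and 2240 ± 67.9 (-1.497, adjusted p = 5.24e-05). Its 1 other probe set was not called. Grhl3, Ehf and Foxa2 were also lower in the class contrast, but neither Ehf nor Foxa2 singled out KC4. Ehf was 682 ± 77.8 in KC1, 95.2 ± 10.0 in KC3 and 667 ± 107 in KC4. Foxa2 was 515 ± 243 in KC1 and 527 ± 90.7 in KC4. Grhl3 was dim, at 58.0 ± 7.88 in KC4.

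Other cadherins were 0 higher and 2 lower of 21 (median -0.05), against 2.51% of all genes called lower. Cdhr2, a cadherin of the brush border, was at or under the floor on all 9 arrays of the highly metastatic lines and 66.4 ± 7.43 in KC4, a difference of at least 2.05 on the log2 scale (adjusted p = 3.5e-08). The other was Cdh13, a cadherin with a lipid anchor (-1.09), and 2 of its 3 other probe sets were called lower. Of the catenins and nectins, which hold cadherin junctions to actin or beside one another, 1 of 19 was called (median 0.10). This was Nectin3, at 1455 ± 55.3, 2544 ± 199 and 227 ± 19.3 against 61.3 ± 23.9 in KC4 (4.01, adjusted p = 7.71e-07). Of its 5 other probe sets, 3 were called higher in the class contrast. With the line as a random block 0 of the 19 were called in limma, with 2 at an unadjusted p under 0.05, and 1 of 19 is near the share of all genes called (2.85% higher and 2.51% lower).

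Of the 12 receptors of fibronectin, 1 was called, lower (median -0.24), against 2.51% of all genes called lower. Itga5, the alpha chain of the classical fibronectin receptor, was 130 ± 11.9, 10.3 ± 0.79 and 109 ± 15.4 against 212 ± 34.0 in KC4 (-1.79, adjusted p = 5.46e-06). All KC2 arrays were under the floor, so Itga5 and Fn1 were both lowest in KC2, although 0 of the 3 other Itga5 probe sets were called in the class contrast. With the line as a random block 0 of the 12 receptors were called in limma, with 1 at an unadjusted p under 0.05. Of the 11 intermediate filament genes and partners related to vimentin, 0 were called in limma, with a median of -0.28. A count of 0 of 11 is near the share of all genes called (2.85% higher and 2.51% lower). At an unadjusted p under 0.05 there were 3, again without a share over all genes.

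**Figure D4:**
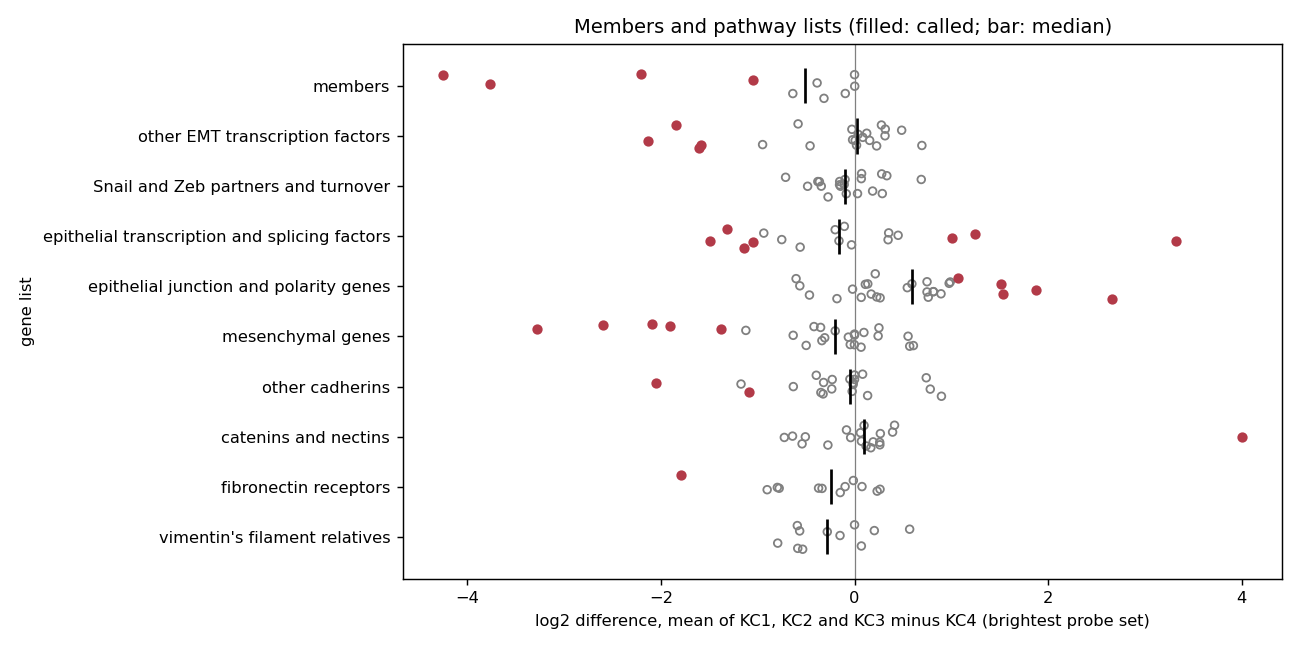
Class differences (log2, KC1, KC2 and KC3 minus KC4) of the genes in the 9 lists and of the 10 members, 1 point per gene, with the median of each list as a bar; filled points were called. Junction and polarity genes lie mostly above 0, with a median of 0.59, and the called mesenchymal genes all lie below it.

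Promoters of the called junction genes were read for the same E-box. Of the junction and polarity genes with a window in the table, 15 of 21 held it, against 19.4% of the 27025 genes of the whole table. It was found in 5 of 10 epithelial transcription and splicing factors, 4 of 10 fibronectin receptors, 5 of 17 catenins and nectins, 2 of 16 other cadherins and 2 of 19 partners of Snail and Zeb. It was also found in 1 of 14 further EMT factors, 0 of 16 mesenchymal genes and 0 of 7 filament genes. These shares describe the lists and not the measured changes, since most junction genes that hold the E-box were not called. The windows of Ap1m2 (chr9:21312334-21312583, minus strand), Muc1 (chr3:89228806-89229055, plus strand) and Cldn4 (chr5:134946935-134947184, minus strand) are shown as those of the named genes that hold it, again from RefSeq on GRCm38.p6 with the same capitals. They were chosen after their values and matches had been seen.
Ap1m2: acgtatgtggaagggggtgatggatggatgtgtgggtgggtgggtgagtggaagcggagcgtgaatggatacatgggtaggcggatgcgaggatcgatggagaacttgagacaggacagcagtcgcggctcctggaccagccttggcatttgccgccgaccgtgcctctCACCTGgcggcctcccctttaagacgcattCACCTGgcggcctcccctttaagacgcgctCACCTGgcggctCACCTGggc
Muc1: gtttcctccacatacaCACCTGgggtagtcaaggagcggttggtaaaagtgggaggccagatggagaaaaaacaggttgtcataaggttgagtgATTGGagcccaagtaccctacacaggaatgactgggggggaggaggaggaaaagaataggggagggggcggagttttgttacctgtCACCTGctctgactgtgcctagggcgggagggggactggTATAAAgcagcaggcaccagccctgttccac
Cldn4: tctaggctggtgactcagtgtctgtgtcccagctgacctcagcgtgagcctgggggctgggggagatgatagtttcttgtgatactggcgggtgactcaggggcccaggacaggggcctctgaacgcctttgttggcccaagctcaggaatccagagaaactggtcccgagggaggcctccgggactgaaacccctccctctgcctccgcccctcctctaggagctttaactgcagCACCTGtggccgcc
Ap1m2 held 4 copies of CACCTG, at 81, 51, 21 and 9 bases before the start. Muc1 held 2, at 234 and 70 bases, with TATAAA at 31 bases, and Cldn4 held 1, at 14 bases. The window of Cldn3 held none. Any part of the E-box in the differences between lines was not tested.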

How the data were processed

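The deposited values are linear intensities, 1 for each probe set on each of 12 arrays. The authors' software and background correction for these intensities are not given in the sources used here. Each array, judged by its values, had been scaled to a mean of 500.002 to 500.003 after trimming 2% at each end, so a change in total messenger RNA would not be seen. Of 45101 probe sets, 64 controls were left out. The platform annotation gave 34945 of the rest 1 symbol, 932 several and 9160 none. Signals were floored at 16 and log2 transformed. The log2 values were fitted over 45037 probe sets with limma 3.58.1 (lmFit and eBayes, 1 coefficient per line) in R 4.3.3. The fit was also run on simulated arrays with changes placed in KC4, only in probe sets with a mean log2 of at least 8. That check does not cover dimmer probe sets or differences among the other lines.

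The genes and lists were chosen with earlier results of these data known. The 10 genes are reported with every probe set. From each list up to 4 genes were named that were called in each of KC1, KC2 and KC3 against KC4 in one direction, by the smallest of the 3 differences, or, where a list had none, up to 2 that the class contrast called. Other genes are named only within a count and were chosen after their values were seen. Likeness between genes was Pearson's r, with 3 genes named for each member whose line means spanned log2 2 or more. Some listed genes were not analysed here.

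Same-numbered arrays of different lines did not deviate together (18 correlations from -0.16 to 0.12), so the replicate number was not taken as a pairing. With 3 arrays per line, the median SD within a line was 0.12 for probe sets with a mean log2 of at least 8 and 0.41 under 6. Alternatives covered the floor, the choice of probe set, the scaling, the threshold, single arrays and lines, and the treatment of the line. Figures were drawn with matplotlib 3.10.9.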

Additional observations from a re-analysis of the deposited data

How the results depend on the processing

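Over 28 settings, 404 of the counts stayed within 1.5 times the main count and 37 did not. Of the 37 single differences that were followed, 26 were called, and 819 of their values under other settings kept direction and side of the threshold, 32 lost a call, 24 gained one and 1 changed sign. That 1 is Snai2 in the class contrast, which was 1.34 without the line KC2.

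With a minimum log2 difference of 2, members called fell to 1 in KC1 minus KC4 and 2 in KC3 minus KC4, and 2 calls set a line apart. Those 2 were Snai2 and Vim, both lower in KC2, and no member then set KC4 apart. The list counts were then 1 for further EMT factors, 1 for epithelial factors, 1 for junction genes, 3 for mesenchymal genes, 1 for other cadherins and 0 for fibronectin receptors. With a minimum of 0.58, members called were 4 in KC1 minus KC3 and 5 in KC1 minus KC4, and the lists gave 7 further EMT factors, 2 partners of Snail and Zeb, 14 junction genes, 3 catenins and nectins, 3 fibronectin receptors and 2 filament genes. Fewer or more calls follow from the threshold itself.

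With the line as a random block (consensus correlation 0.43), 0 members were called in the class contrast, and the lists gave 1 further EMT factor, 2 epithelial factors, 3 mesenchymal genes, 0 catenins and nectins and 0 fibronectin receptors; at an unadjusted p under 0.05 the last 2 lists held 2 and 1 genes, and the members 4. With 2 groups and the line ignored, epithelial factors were 4, mesenchymal genes 3 and fibronectin receptors 0, and Vim lost its call (adjusted p = 0.0847). Without KC2 there were 2 partners of Snail and Zeb, 4 epithelial factors and 2 catenins and nectins, and without KC3 there was 1 other cadherin.

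A floor of 64 and a filter on dim probe sets each left 1 other cadherin. A pseudocount of 16 left 4 epithelial factors. The mean of all probe sets of a gene gave 3 fibronectin receptors and 1 filament gene. Under that choice Zeb2 set KC4 apart, while Fn1 in KC2 lost its calls against KC3 (-0.76) and KC4 (-0.87). Median centring gave 4 members in KC1 minus KC3, where it shifted the median of all genes to -0.21, and Snai1 was then called (-1.03). Snai1 was also called in that pair under quantile normalization (-1.003, adjusted p = 0.0056), where the median of all genes was -0.022. Apart from the threshold, the cause of the changes was not tested.

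Leaving out 1 array gave 1 to 2 fibronectin receptors, with 2 without the third KC4 array, and 3 to 4 members in the class contrast, where Zeb2 fell just under the minimum (-0.997) without the first KC4 array. With the replicate number as a block, 2 members were called in KC1 minus KC4, 5 calls set a line apart, and the only single call lost was Cdh3 between KC1 and KC4 (adjusted p = 0.0619). Depth is not a measure here: dim probe sets vary most between arrays, which limits Snai1, Zeb1, Cdh3 and the low lines of Cdh2 and Snai2.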
